A study of Mus musculus with 12 samples.

Results

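MC38 cells that carried a guide RNA against Hcar1 (sgHcar1) were compared with MC38 cells that carried a control guide (sgControl), both kept in 20 mM lactate for 24 hours before RNA was sequenced. Each arm had 3 libraries, and 6 of the 12 libraries of the series enter the comparison. The other 6 libraries came from the same guide populations without added lactate, which the labels give as PBS, again 3 for each guide, and served to ask whether a guide difference was already present. MC38 is a mouse colon adenocarcinoma line, and all groups share that background. The labels do not say whether a population came from 1 clone, how many guides it held, or whether the 3 libraries of a group were separate cultures, so p-values here measure the spread between these libraries alone. A gene was taken into the comparison when it reached 1 FPKM in at least 3 of the 6 lactate libraries, which 12788 of the 42329 entries of the deposited table did. Of these, 691 are unannotated entries and 1585 have no symbol.

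HCAR1, also called GPR81, is a receptor on the cell surface that binds lactate and couples to an inhibitory G protein, which lowers cyclic AMP. Lactate also enters cells without it, through proton-linked monocarboxylate carriers, is turned into pyruvate by lactate dehydrogenase, and loads the cell with acid and reducing equivalents. A CRISPR guide directs the Cas9 nuclease to cut the gene it matches, and the cut is repaired with small insertions or deletions, so the message of a cut gene can persist.

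The targeted gene could not serve as a check. Hcar1 was listed at 0 in all 6 lactate libraries (exact two-sided permutation test, p = 1). Hcar2, the neighbouring receptor for hydroxybutyrate, had 0, 0.0312 and 0.0323 FPKM in sgControl and 0 in all 3 sgHcar1 libraries, a difference that did not pass (exact permutation test, p = 0.4, where the smallest possible p with 3 against 3 is 0.1). Levels in log2(FPKM + 1) correlated at 0.991 to 0.993 within a lactate group and at 0.782 to 0.789 between guides. Between 12017 and 12064 genes reached 1 FPKM in the sgControl and 11758 to 11831 in the sgHcar1 libraries. The deposited values were already on a median-ratio scale, while their sums were 310109 to 317330 in sgControl and 411996 to 421984 in sgHcar1 libraries, and the 10 most abundant genes held 6.31% and 11.1% of these sums. Rescaling each library to the same sum moved the median difference of all genes from 0.01 to -0.37 on the log2 scale, so differences below are relative to the median gene, and direction counts that this shift moves are given with both values.

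Markers of leukocytes and endothelium were mostly low or absent, whereas 7 of 14 fibroblast and muscle markers passed the filter. Of 16 leukocyte markers with an entry, 8 were at 0 in all 6 libraries, Ptprc, Cd3e, Adgre1, Itgam and Tyrobp among them, and their summed level was 20.6 to 21.7 FPKM in sgControl and 8.43 to 10.6 FPKM in sgHcar1 libraries, carried by Cd14 and Cd68. The 10 endothelial markers summed to 0.68 to 0.933 FPKM in sgControl and 0.817 to 1.02 FPKM in sgHcar1 libraries. The 14 fibroblast and muscle markers summed to 155 to 162 FPKM in sgControl and 73.4 to 79.5 FPKM in sgHcar1 libraries, with Lum and Thy1 at 0 in all 6. Of the 7 past the filter, 5 were lower and 2 higher in sgHcar1 cells. Among the lower ones, Col3a1 and Prrx1 had lactate means of 63.1 and 25.4 FPKM in sgControl against 0.256 and 6.03 FPKM in sgHcar1 cells. Of the 12 epithelial markers, 3 were at 0 in all 6 lactate libraries, Epcam, Cdx2 and Esrp1, and 2 passed the filter, Cdh1 and Krt18. Cdh1 was at 4.56, 4.37 and 4.64 FPKM in sgControl and at 0 in the sgHcar1 libraries. The 12 epithelial markers summed to 4.996 to 5.39 FPKM in sgControl and 110.6 to 115 FPKM in sgHcar1 libraries, nearly all of the latter from Krt18. The 11 melanocytic and neural markers summed to 6.14 to 6.78 and 13.8 to 14.97 FPKM. In bulk RNA fewer cells of a type and less RNA per cell cannot be told apart, and the part of these marker levels in the results was not tested.

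The 2 populations differed in most expressed genes. sgHcar1 cells had almost no message of the chemokine genes Ccl2 and Ccl7, of Mmp2 and of Col6a3, which were abundant in sgControl cells, and had high levels of interferon-stimulated genes, of the ribosomal protein paralogue Rpl39l and of heat shock chaperones. Of 12788 genes, 10788 (84.4%) passed a Benjamini-Hochberg adjusted p of 0.05 in limma, a linear model on log2(FPKM + 1) fitted to all 12 libraries. Of all genes tested, 5465 (42.7%) were higher in sgHcar1 and 5323 (41.6%) lower. Rescaled to equal library sums the split was 3407 higher and 7343 lower of 10750. With at least a 2-fold difference the calls were 3677 (28.8%), 1724 of them higher (13.5%) and 1953 lower (15.3%). No overlap between the 3 sgHcar1 and the 3 sgControl libraries was found for 5446 genes in the higher (42.6%) and 5343 in the lower direction (41.8%). With 84.4% of genes called, a passed test says little about any single gene, the sizes below carry more, and counts over a gene list are to be read against these shares of all genes.

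Most of the guide difference was also seen without lactate, in other libraries of the same 2 guide populations. These PBS libraries do not enter the lactate difference itself, but the model takes 1 estimate of spread from all 12 libraries. In PBS, 9950 genes passed (77.8%), 4939 higher (38.6%) and 5011 lower (39.2%), and 2507 of them by at least 2-fold (19.6%), 1066 higher (8.34%) and 1441 lower (11.3%). The same direction was called in both media for 7921 genes and the opposite direction for 966. Of the 3677 genes called at 2-fold or more in lactate, 2032 were called at 2-fold or more in the same direction in PBS. Across genes, which are not independent replicates, the lactate and PBS differences correlated at r = 0.863 (Spearman rho = 0.797). The median size of a difference was 0.60 in lactate and 0.45 in PBS on the log2 scale. The difference between the lactate and the PBS difference, an interaction term of the same model, passed for 7851 genes (61.4%), 4062 with a positive (31.8%) and 3789 with a negative value (29.6%), and for 993 by at least 2-fold (7.77%), 550 positive (4.3%) and 443 negative (3.46%).

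**Figure D1:**
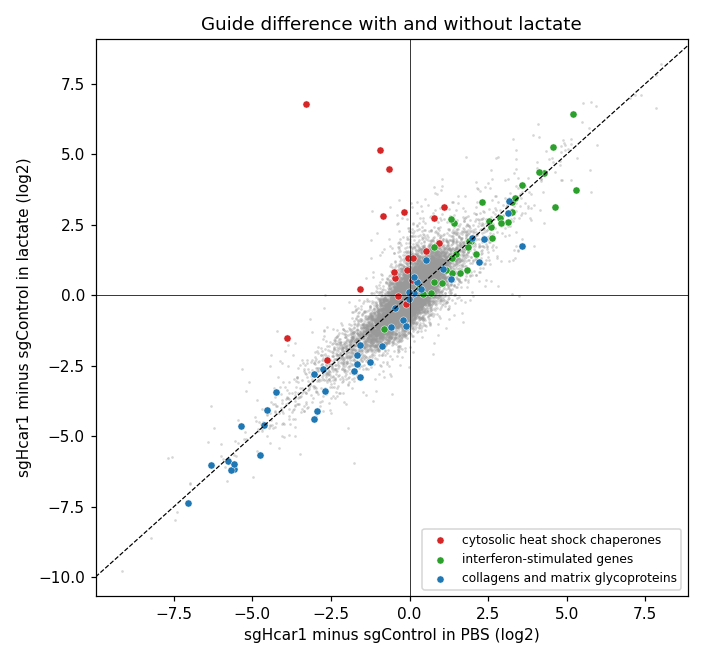
Guide difference in lactate (vertical axis) against guide difference in PBS (horizontal axis), both as sgHcar1 minus sgControl in log2(FPKM + 1), 1 grey point per gene for 12788 genes, with heat shock chaperones in red, interferon-stimulated genes in green and collagens and matrix glycoproteins in blue. Most points lie along the dashed line of equal differences (r = 0.863 across genes), while Hspa1b, at 6.79 in lactate and -3.30 in PBS, and other heat shock genes lie far above it.

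Most of the genes with the largest lower differences in sgHcar1 cells encode secreted or matrix proteins. Ccl2, which encodes a chemokine that attracts monocytes, was at 853, 951 and 958 FPKM in the 3 sgControl and at 0, 0.125 and 0.0664 FPKM in the 3 sgHcar1 libraries (-9.76 ± 0.07 in log2(FPKM + 1), SE, n = 3 per group, limma adjusted p = 5.68e-16). Its neighbour Ccl7, a chemokine for the same receptor, was at 237, 283 and 259 FPKM against 0, 0 and 0.0943 FPKM (-7.98 ± 0.06). In each case every sgControl library lay far above the sgHcar1 libraries, which held at most a trace. Mmp2, a gelatinase that digests collagen IV, was at 398, 407 and 399 FPKM against 0.0236, 0 and 0.0746 FPKM (-8.61 ± 0.03, limma adjusted p = 6.65e-18). Tgfbi, a matrix adhesion protein induced by TGF-beta, was at 206, 202 and 209 FPKM against 0, 0.0265 and 0 FPKM (-7.68 ± 0.03). Bgn, the proteoglycan biglycan, was at 234, 237 and 229 FPKM against 0.459, 0.467 and 0.36 FPKM (-7.36 ± 0.06). These 5 genes were each above 200 FPKM in every sgControl library and below 0.5 FPKM in every sgHcar1 library.

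The rest of the 12 largest lower differences included 5 more genes of secreted or matrix proteins, a keratin gene and a carrier gene. Fstl1, a secreted follistatin-like glycoprotein, had 141, 155 and 150.3 FPKM in sgControl against 0.433, 0.462 and 0.509 FPKM in sgHcar1 cells (-6.67 ± 0.05). Timp3, an inhibitor of metalloproteinases held in the matrix, had 111, 108 and 113 and 0.132, 0.148 and 0.223 FPKM (-6.58 ± 0.04). Fbn1, the microfibril protein fibrillin-1, had 80.6, 79.2 and 81.9 and 0.142, 0.0644 and 0.106 FPKM (-6.21 ± 0.04). The collagen VI chains are assembled into a beaded filament. Col6a1 had 235, 235 and 237 against 2.34, 2.2 and 2.28 FPKM (-6.18 ± 0.03), and Col6a3 had 66.7, 62.4 and 63.6 against 0.00599, 0 and 0 FPKM (-6.02 ± 0.04). The other 2 genes were listed at 0 in all 3 sgHcar1 lactate libraries, so no fold can be given. Krt14, a keratin of basal epithelium, had 95.5, 98.7 and 108 FPKM in sgControl cells (limma adjusted p = 5.68e-16), and Slc7a2, a carrier of cationic amino acids, had 85.8, 84.9 and 84 FPKM (adjusted p = 1.04e-16 in limma). All 12 genes were called lower in PBS too.

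The largest higher differences came from genes of several kinds. Rpl39l, a paralogue of the ribosomal protein gene Rpl39 that is best known from testis, was listed at 0 in the whole sgControl group, while sgHcar1 libraries had 229.8, 227 and 219 FPKM (limma adjusted p = 2.40e-17). Reads of a gene with a near-identical parent can be divided between the copies, so this level is uncertain. Cldn6, a tight junction claudin of embryonic epithelia, had 0.0757, 0.0399 and 0.0414 FPKM in sgControl against 141, 145 and 140.0 FPKM in sgHcar1 cells (7.09 ± 0.05). Baiap2l1, an adaptor that bends membranes at actin-rich protrusions, had 1.93, 2.09 and 1.5 against 363, 359 and 352 FPKM (6.99 ± 0.07). Krt18, a keratin of simple epithelia, was likewise listed at 0 in sgControl cells and at 110.2, 113 and 114 FPKM in sgHcar1 cells (limma adjusted p = 3.36e-16). Its usual partner Krt8 had lactate means of 0.208 FPKM in sgControl against 0.0643 FPKM in sgHcar1 cells. Hspa1b, the inducible Hsp70, had 27.6, 30.9 and 29.6 against 3405, 2770.5 and 3984 FPKM (6.79 ± 0.11, limma adjusted p = 2.56e-13), and was lower, not higher, in sgHcar1 cells in PBS. It alone of these 12 genes changed direction between media.

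The other 7 of these 12 were higher in sgHcar1 cells in both media. Ifi202b, an interferon-inducible protein of the AIM2-like family whose level is known to vary between mouse strains, was at 0 in the sgControl libraries of both media and at 97, 105 and 109 FPKM in sgHcar1 cells with lactate. Oasl1, an interferon-induced oligoadenylate synthetase-like protein, had 0.394, 0.23 and 0.143 against 107, 107 and 103 FPKM (6.41 ± 0.06). Esm1, a proteoglycan secreted by endothelium and some tumours, had 0.0272, 0 and 0 against 101, 103 and 97.5 FPKM (6.65 ± 0.04). Tmem176b, a channel-like membrane protein of myeloid cells, had 3.27, 4.12 and 4.59 against 303, 311 and 295 FPKM (5.94 ± 0.08). The milk protein gene Csn3, kappa-casein, had 0.44, 0.39 and 0.39 against 68.7, 71.9 and 75.1 FPKM (5.69 ± 0.04). Egr1, a transcription factor induced within minutes of growth factor signals, had 4.7, 5.37 and 4.96 against 301, 276 and 294 FPKM (5.60 ± 0.06). Cyp2c55, a cytochrome P450 of colon and liver, had 0, 0.0602 and 0 against 46, 44 and 46.9 FPKM (5.51 ± 0.07). No sgControl library reached the level of an sgHcar1 library in these 12 genes, which the rule that picked them required.

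**Figure D2:**
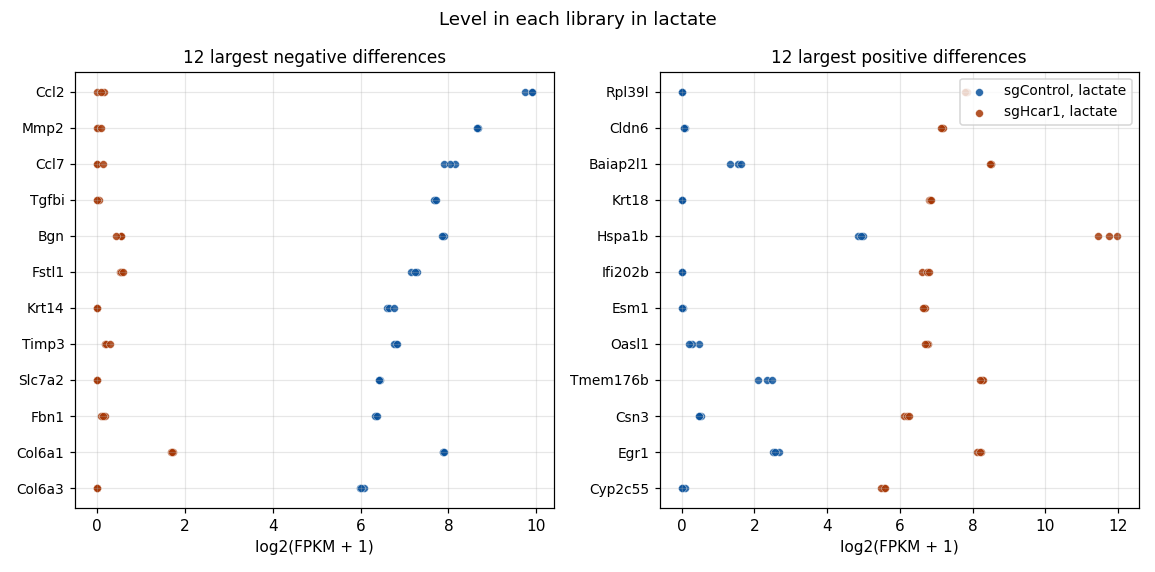
Level in log2(FPKM + 1) in each of the 6 lactate libraries (1 point per library, sgControl in blue and sgHcar1 in brown) for the 12 genes with the largest lower (left panel) and the 12 with the largest higher difference (right panel). In the left panel no sgControl library lies below 62.4 FPKM and no sgHcar1 library above 2.34 FPKM. The groups do not overlap in either panel, which the choice of genes required.

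Some genes were switched rather than graded. Under 0.1 FPKM in every sgControl lactate library but at a mean of at least 1 FPKM in sgHcar1 were 248 genes (1.94%), of which 215 were also under 0.1 FPKM in every sgControl PBS library and 172 reached 1 FPKM in sgHcar1 PBS. The reverse held for 435 genes (3.4%), of which 393 were under 0.1 FPKM in sgHcar1 PBS too and 377 reached 1 FPKM in sgControl PBS. Exact zeros in all 3 lactate libraries made up 146 and 258 of these sets. Beyond genes already named, the most abundant of the first set were Nefm, a neurofilament subunit, listed at 0 in sgControl and at 28.9, 29.6 and 27.8 FPKM in sgHcar1 cells, and the phosphatase gene Ppef1, at 0.0395, 0.0623 and 0.0431 against 29.4, 30.6 and 29.5 FPKM. Of the reverse set they were Cspg4, the NG2 proteoglycan of pericytes and glial progenitors, at 67.1, 65.3 and 66 against 0.0445, 0.0529 and 0.0844 FPKM, and Pmp22, a membrane protein of peripheral myelin, at 59.5, 63.9 and 62 FPKM in sgControl and 0 in all 3 sgHcar1 libraries. More genes were thus under the limit in sgHcar1 than in sgControl cells, also at limits of 0.05 (203 and 357 genes) and 0.2 FPKM (311 and 538). Ratios of low values gave relative numbers of fragments per FPKM of 0.904 to 0.988 in sgControl and 0.746 to 0.793 in sgHcar1 lactate libraries. Fewer fragments per FPKM make a value of 0 more likely, and the part of this in these counts was not tested.

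Most matrix genes were lower in sgHcar1 cells, although some were higher. The median difference of 26 tested matrix glycoprotein and proteoglycan genes was -2.23, with 9 higher, 17 lower and 0 not past the test, against 42.7% higher and 41.6% lower of all genes. Their summed level was 1530.4 to 1586 FPKM in sgControl against 508 to 524 FPKM in sgHcar1 libraries. Ecm1, a glycoprotein that binds perlecan, had 233, 219 and 229.7 against 7.97, 7.68 and 8.8 FPKM (-4.64 ± 0.05), and Ltbp2, a fibrillin-binding protein, had 29.4, 28.7 and 28.6 against 0.245, 0.243 and 0.221 FPKM (-4.59 ± 0.05). Of 16 collagens, 11 were lower and 4 higher (median -1.45), and Col8a1 did not pass. Col3a1, of fibrillar collagen III, had 63.1, 61.8 and 64.3 against 0.336, 0.21 and 0.223 FPKM (-5.67 ± 0.05). Col5a3 had 22, 21.1 and 20.2 against 0.0842, 0.0626 and 0.0444 FPKM (-4.37 ± 0.05), and Col6a2 had 57.1, 54.5 and 60.6 FPKM in sgControl and 0 in all 3 sgHcar1 libraries. Col1a2, of fibrillar collagen I, went the other way, with means of 34.1 and 51.1 FPKM (0.57 ± 0.03).

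Enzymes that cut or protect the matrix followed the same split. Of 15 tested proteases and inhibitors, 10 were lower and 4 higher (median -0.76), against 41.6% lower and 42.7% higher of all genes. Mmp14, the membrane-bound protease that activates pro-MMP2, had 57.2, 55.7 and 56.4 against 6.4, 6.53 and 6.27 FPKM (-2.96 ± 0.04), and Mmp11, stromelysin-3, had 31.8, 30.3 and 29.95 against 3.43, 3.78 and 3.44 FPKM (-2.80 ± 0.06). Timp2, which takes part in that activation, had 199, 201 and 197 against 33.5, 35.3 and 34.6 FPKM (-2.50 ± 0.04). So protease, activator and inhibitor of the MMP2 system were all lower. For Mmp14 and Mmp11 the difference was larger in lactate than in PBS, where it was -1.09 ± 0.04 and -0.61 ± 0.06 (interaction -1.87 ± 0.05 and -2.19 ± 0.08, limma adjusted p = 1.63e-09 and 8.07e-09). Of 15 integrin and laminin genes 9 were lower and 3 higher (median -0.35). Itgb4, which anchors hemidesmosomes to laminin, had 41.8, 41.1 and 42.9 against 0.623, 0.547 and 0.398 FPKM (-4.82 ± 0.05). Itgb7, best known from gut-homing lymphocytes, had 257, 252 and 258 against 61.4, 61.2 and 62 FPKM (-2.04 ± 0.05). Itga3 and Lamb2, of laminin adhesion, differed by -1.53 and -1.38.

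Most Hox genes tested were lower in sgHcar1 cells, and whether the populations differ in positional identity was not tested. Hox genes are expressed by position along the body axis and can keep that code in culture. Of 18 tested Hox genes 16 were lower, none was higher, and Hoxa5 and Hoxa6 did not pass (median -1.64). Of all genes 41.6% were lower and 42.7% higher. The summed level of the Hox genes was 139 to 144 FPKM in sgControl against 28.4 to 30.2 FPKM in sgHcar1 libraries. By cluster, 5 of 7 Hoxa, 4 of 4 Hoxb, 6 of 6 Hoxc and 1 of 1 Hoxd genes were lower. Hoxc11 had 16.8, 14.8 and 16.1 against 0, 0.0703 and 0 FPKM (-4.05 ± 0.06), and Hoxc9 and Hoxc10, at 5.53, 5.92 and 5.59 FPKM and 11, 11.1 and 11.9 FPKM in sgControl cells, were listed at 0 in every sgHcar1 library. Hoxb7 had 7.28, 6.96 and 7.82 against 0, 0.046 and 0 FPKM (-3.04 ± 0.07). Hoxb9 kept a part of its level, with 30.4, 31.5 and 29 against 5.37, 4.44 and 4.4 FPKM (-2.45 ± 0.07), and its sgHcar1 lactate libraries were above those in PBS, at 1.1, 1.37 and 1.22 FPKM. Neighbouring Hox genes overlap and the counting is not stated to use strand, so reads of genes in 1 cluster are not wholly separate.

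Epithelial, mesenchymal and gut identity genes gave mixed pictures. Of 11 junction and keratin genes tested, 4 were higher and 5 lower (median -0.16), against 42.7% higher and 41.6% lower of all genes. Cdh1, E-cadherin, had 4.56, 4.37 and 4.64 FPKM in sgControl and 0 in all 3 sgHcar1 libraries. Krt80 had 40.9, 39.9 and 40.6 against 13.2, 11.6 and 12.6 FPKM (-1.62 ± 0.05), and the desmosomal gene Pkp1 had 1.39, 1.29 and 1.15 against 0.0571, 0.0283 and 0 FPKM (-1.15 ± 0.07). Among 17 mesenchymal transition genes 7 were higher and 9 lower (median -0.46), and with equal library sums 3 and 12. The transcription factor genes Foxc2, at 18.9, 18 and 17.8 against 0.132, 0.0521 and 0.0554 FPKM (-4.16 ± 0.06), Prrx1 (-1.91 ± 0.04) and Twist2 (-1.42 ± 0.10) were lower. Tropomyosin Tpm2 was lower (-1.96 ± 0.03) and Cdh2, N-cadherin, was higher, at 3.08, 3.19 and 3.24 against 8.13, 7.65 and 8.33 FPKM (1.12 ± 0.04). Of 9 intestinal lineage genes tested, 4 were higher and 5 lower. A pair of GATA factors of gut endoderm was exchanged. Gata6 had 5.68, 6.41 and 5.93 FPKM in sgControl and 0 in all 3 sgHcar1 libraries, while Gata4 was listed at 0 in sgControl and had 4.01, 3.26 and 3.67 FPKM in sgHcar1 cells. Sox9, of crypt progenitors, had 94.4, 90.6 and 87 against 17, 15.3 and 12.8 FPKM (-2.52 ± 0.09), and Klf5, of proliferating crypt cells, 6.96, 7.01 and 6.01 against 65.1, 62.5 and 61 FPKM (3.06 ± 0.07).

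Most other chemokine genes tested were lower in sgHcar1 cells too. The 28 chemokine genes with an entry summed to 1276 to 1450.2 FPKM in sgControl against 81.5 to 84.6 FPKM in sgHcar1 libraries. Of the 12 tested, 8 were lower and 4 higher (median -1.57), against 41.6% lower and 42.7% higher of all genes. Cxcl16, a membrane-bound ligand of CXCR6, had 28.7, 33.7 and 32.9 against 0.0258, 0.0766 and 0.0815 FPKM (-4.94 ± 0.08), and Ccl8, a further monocyte attractant, had 9.49, 9.75 and 11.3 FPKM in sgControl and 0 in all 3 sgHcar1 libraries. Ccl5, which attracts T cells, was higher, at 2.08, 2.25 and 2.72 against 14.9, 15.5 and 16.6 FPKM (2.32 ± 0.09). Cytokine genes were mixed, with 7 of 14 higher and 6 lower, close to the shares of all genes, and Csf2 not past the test. Il34, a ligand of the macrophage receptor CSF1R, had 85.1, 87.6 and 86.8 against 2.89, 2.9 and 2.35 FPKM (-4.56 ± 0.06), and Il18, an inflammasome cytokine, had 3.44, 4.04 and 4.1 against 0, 0.0994 and 0 FPKM (-2.23 ± 0.11). Higher were Il23a, a subunit of IL-23, at 0.672, 0.751 and 0.642 against 4.38, 6.27 and 5.34 FPKM (1.90 ± 0.10), Lif (1.46 ± 0.09) and Il11 (1.45 ± 0.12), 2 cytokines that signal through gp130.

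NF-kB is a transcription factor of inflammation. Of 22 of its components and targets 17 were lower and 4 higher (median -1.24), and Nfkb1 itself did not pass. Of all genes 41.6% were lower and 42.7% higher. Saa3, an acute phase protein, had 84.9, 83.5 and 101 against 3.78, 3.61 and 2.56 FPKM (-4.40 ± 0.12). Complement C3 had 47.1, 47.2 and 50.1 against 11.1, 12 and 10.8 FPKM (-2.00 ± 0.06), and Birc3 and Traf1, 2 signalling proteins of the TNF receptor, differed by -2.28 ± 0.09 and -2.11 ± 0.08. Against that trend Ptgs2, which makes prostaglandins, had 146, 158 and 146 against 1007, 989.8 and 944 FPKM (2.70 ± 0.05), and so the list's summed level was above that of sgControl cells, 994 to 1013 against 1458 to 1544 FPKM, while most of its genes were lower.

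Interferon-stimulated genes formed the list with the highest median. Of 36 tested, 33 were higher in sgHcar1 cells, 26 of them by at least 2-fold, where 13.5% of all genes were that much higher. Ifit2 alone was lower, and Parp14 and Ifi35 did not pass (median 2.22, and 2.04 in PBS). With equal library sums 30 were higher and 3 lower. The summed level was 266 to 293 FPKM in sgControl against 1344 to 1371 FPKM in sgHcar1 libraries. Ifi44 had 0.437, 0.509 and 0.427 against 54.9, 55.4 and 52.9 FPKM (5.25 ± 0.04). The oligoadenylate synthetase genes Oas2 and Oasl2, whose family senses double-stranded RNA, had 0.82, 1.04 and 1.04 against 28.2, 29.1 and 27.1 FPKM (3.89 ± 0.06) and 1.39, 1.95 and 1.59 against 51, 54.2 and 49.3 FPKM (4.32 ± 0.07). Usp18, which removes ISG15 from proteins and damps the interferon receptor, had 0.756, 1.12 and 1.12 against 39.6, 42.2 and 37.8 FPKM (4.36 ± 0.08). Irf7, a transcription factor of the response, differed by 2.95 ± 0.11. In Ifi44, Oas2, Oasl2 and Usp18 the sgControl libraries held 0.427 to 1.95 FPKM, low but not nil.

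The promoters of these genes are printed because the members moved together and their control element is known. The interferon-stimulated response element is bound by the ISGF3 complex and by interferon regulatory factors. Its core was searched as GAAANNGAAA, and as TTTCNNTTTC for the other strand, in RefSeq windows of 250 bases before to 50 after a gene's start (GRCm38.p6). A match lay in 13 of the 24 list genes with a window (54.2%), in 300 of 8297 tested genes with a window (3.62%) and in 1131 of all 32851 windows (3.44%). The stretches below lie before the start, with the matches in capitals.
Isg15, chr4:156200845-156200926, minus strand: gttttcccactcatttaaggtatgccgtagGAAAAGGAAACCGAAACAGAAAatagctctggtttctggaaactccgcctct
Ifit1, chr19:34640755-34640843, plus strand: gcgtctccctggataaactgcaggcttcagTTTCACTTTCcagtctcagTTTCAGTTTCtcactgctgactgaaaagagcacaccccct
Gbp3, chr3:142559969-142560043, plus strand: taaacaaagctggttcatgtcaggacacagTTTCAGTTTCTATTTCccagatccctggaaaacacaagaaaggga
In Isg15 the 3 matches overlap in 1 run, in Gbp3 the 2 matches overlap, and in Ifit1 the 2 matches are apart. Isg15, the ubiquitin-like modifier, had 9.27, 11.8 and 10.9 FPKM in sgControl against 157, 152 and 149 FPKM in sgHcar1 cells (3.72 ± 0.12). Ifit1, which binds foreign RNA, had 1.59, 1.94 and 1.36 against 24.6, 24.4 and 24.8 FPKM (3.29 ± 0.09), and Gbp3, a guanylate-binding GTPase, had 1.55, 1.78 and 1.68 against 29.8, 28.3 and 27.1 FPKM (3.46 ± 0.05). A match of letters does not show that a factor was bound, and these 3 genes were picked for their promoters after their values were seen.

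Antigen presentation, which interferon also induces, did not follow that list. Of 16 MHC class I and checkpoint genes 10 were higher and 6 lower (median 0.24), where 42.7% and 41.6% of all genes were. None of the 16 was higher by 2-fold, where 13.5% of all genes were. With equal library sums 5 were higher and 8 lower, and the median turned to -0.15. H2-K1, a classical class I heavy chain, had 281, 282 and 297 against 55.1, 52.2 and 53.4 FPKM (-2.40 ± 0.05), and class I genes are near-identical in parts, so its reads may be shared. Nlrc5, the transactivator of class I genes, had 17.3, 16.1 and 16.5 against 2.67, 2.69 and 2.55 FPKM (-2.28 ± 0.05), and the immunoproteasome subunit Psmb8 had 7.14, 7.79 and 9.17 against 1.61, 1.49 and 1.26 FPKM (-1.88 ± 0.11). The checkpoint ligand genes Cd274, PD-L1, and Cd276, B7-H3, were higher, at 1.71, 2.02 and 1.75 against 4.25, 4.33 and 3.83 FPKM (0.86 ± 0.08) and 4.72, 4.06 and 4.34 against 9.28, 8.12 and 8.59 FPKM (0.85 ± 0.07).

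**Figure D3:**
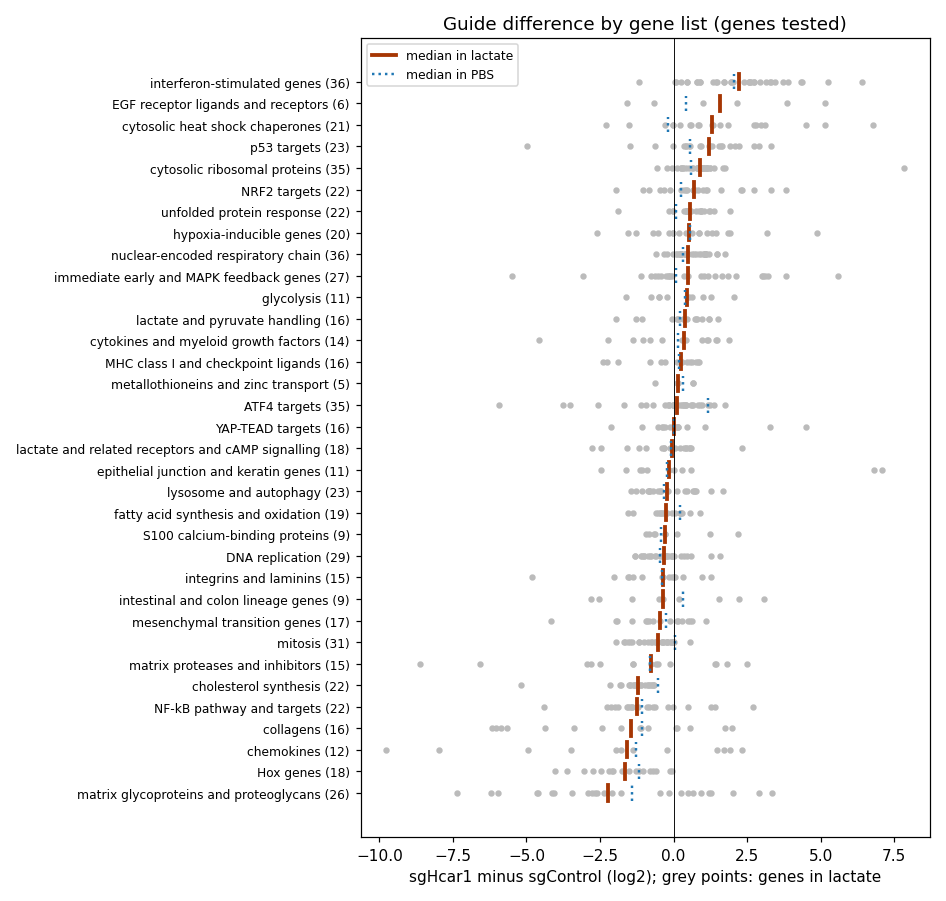
Each grey point is a tested gene of a list, placed by its guide difference in lactate (sgHcar1 minus sgControl, log2(FPKM + 1)), with the list median in lactate as a solid and in PBS as a dotted bar, and the number of genes tested in brackets. Interferon-stimulated genes have the highest median at 2.22 and matrix glycoproteins and proteoglycans the lowest at -2.23, and the gap between the bars is widest for heat shock chaperones (1.32 in lactate, -0.18 in PBS), EGF receptor ligands and receptors (1.59 and 0.43) and ATF4 targets (0.13 and 1.16).

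Heat shock genes were mostly higher in sgHcar1 cells in lactate, while in PBS more of them were lower than higher. Hsp70 and its partners refold proteins in the cytosol and are induced through the factor HSF1. The list also holds the factor genes Hsf1 and Hsf2 and the genes of the mitochondrial chaperonin, Hspd1 and Hspe1. Of its 21 genes tested 16 were higher in sgHcar1 cells in lactate, 11 of them by at least 2-fold, and 3 were lower (median 1.32). Hsf1 and Hspa4 did not pass. Of all genes 42.7% were higher, 13.5% by at least 2-fold, and 41.6% lower. In PBS 5 of the list were higher and 11 lower (median -0.18), where 38.6% and 39.2% of all genes were. The interaction was called positive for 19 and negative for none, where 31.8% of all genes were called positive. With equal library sums 15 were higher and 6 lower in lactate. The list's summed level was 2266 to 2302 FPKM in sgControl against 8794 to 11152 FPKM in sgHcar1 lactate libraries.

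Hspa1b had the largest interaction of all named genes. Its levels in PBS were 22.9, 21.7 and 23.4 FPKM in sgControl against 1.26, 1.42 and 1.55 FPKM in sgHcar1 cells (-3.30 ± 0.11), so the guide difference changed by 10.08 ± 0.15 with lactate (limma adjusted p = 1.54e-11). The near-identical Hspa1a has no entry of its own, so reads of the pair are not set apart. Hsph1, the Hsp110 exchange factor of Hsp70, had 29.9, 29.8 and 29.5 FPKM in sgControl against 1116, 972 and 1205 FPKM in sgHcar1 cells in lactate (5.15 ± 0.06), against 35.4, 34.5 and 35.4 and 17.3, 17.5 and 18.6 FPKM in PBS (-0.94 ± 0.06). Dnajb1, the main inducible Hsp40, had 39.97, 39.2 and 39.99 against 956, 783 and 1014 FPKM (4.49 ± 0.09, in PBS -0.64 ± 0.09), and Dnajb4 had 7.96, 7.51 and 7.43 against 67, 60.5 and 71.6 FPKM (2.96 ± 0.06). In lactate the sgHcar1 libraries of these 4 genes lay far above sgControl, and in PBS they lay below. The highest of the 3 sgHcar1 libraries was the same one, replicate 3, for Hspa1b, Hsph1, Dnajb1 and Dnajb4, and the lowest was replicate 2. The lower members were Hspa2 and the small heat shock protein gene Cryab (-2.28 ± 0.09 and -1.53 ± 0.08) and Hsf2 (-0.31 ± 0.06).

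**Figure D4:**
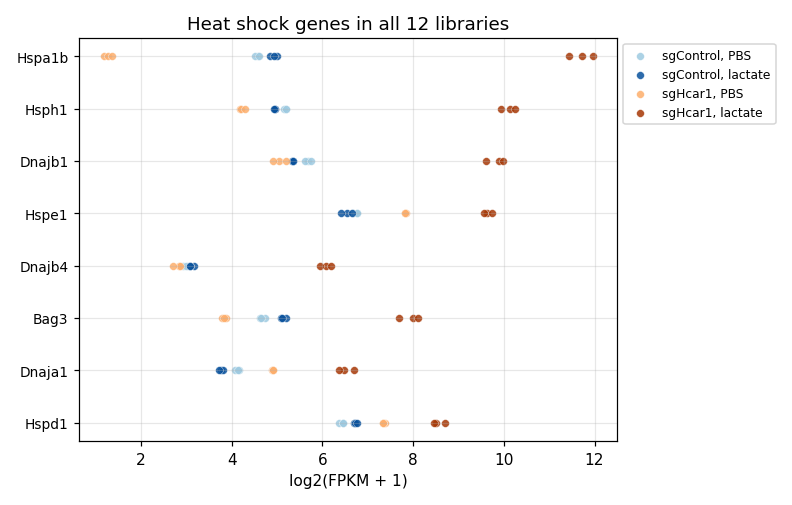
Level in log2(FPKM + 1) in each of the 12 libraries for 8 heat shock genes, 1 point per library, coloured by guide and medium. The sgHcar1 lactate points are the highest in every gene, at 2770.5 to 3984 FPKM for Hspa1b against 27.6 to 30.9 FPKM in sgControl, and in PBS the sgHcar1 points lie below sgControl for Hspa1b, Hsph1, Dnajb1, Dnajb4 and Bag3 and above it for Hspe1, Dnaja1 and Hspd1.

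Promoter windows of the heat shock list were searched for the heat shock element, and the stretch shared by the mitochondrial chaperonin pair is shown because it holds a match for both genes. Hspe1 and Hspd1 encode the 2 parts of the Hsp60 folding chamber and are read in opposite directions from 1 shared promoter. The heat shock element was searched as GAANNTTCNNGAA and as TTCNNGAANNTTC on the other strand. Of 18 list genes with a RefSeq window 4 held a match (22.2%), Hsph1, Hspd1, Hspe1 and Chordc1, against 46 of 8297 tested genes (0.554%) and 198 of all 32851 windows (0.603%). The stretch of GRCm38.p6 between both genes is given in the direction of Hspe1, with 2 overlapping matches in capitals.
Hspe1, chr1:55088029-55088106, plus strand: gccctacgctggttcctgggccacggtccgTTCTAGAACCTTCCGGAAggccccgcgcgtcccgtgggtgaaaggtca
The same bases, read from the other strand, lie before Hspd1. Hspe1 had 92, 84 and 99.9 FPKM in sgControl against 795, 757 and 851 FPKM in sgHcar1 cells (3.11 ± 0.06, and 1.09 ± 0.06 in PBS), and Hspd1 had 102, 104 and 107 against 360.4, 352 and 417 FPKM (1.84 ± 0.06, and 0.92 ± 0.06 in PBS). Unlike Hspa1b, both were already higher in sgHcar1 cells without lactate. The window of Hspa1b held no such match, which says only that these letters are not in it.

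Genes of protein folding in the endoplasmic reticulum were moderately higher. In the unfolded protein response list 18 of 22 were higher and 2 lower, and Calr and Xbp1 did not pass (median 0.57). Of all genes 42.7% were higher and 41.6% lower. With equal library sums the counts of the list were 12 and 4. Dnajb9, a cochaperone of BiP, had 45.9, 45.9 and 44.4 against 172, 171 and 183 FPKM (1.93 ± 0.05), Creld2 had 167, 146 and 163 against 416, 396 and 436 FPKM (1.38 ± 0.07), and Pdia4, a disulfide isomerase, had 147, 143 and 142 against 339, 327 and 340.2 FPKM (1.21 ± 0.03). Ern1, the sensor kinase IRE1, differed by 1.25 ± 0.05. Herpud1, of protein degradation from that compartment, was lower, with 312, 297 and 313 against 81.6, 82.6 and 83.2 FPKM (-1.89 ± 0.03), and this was mostly seen in lactate (in PBS -0.31 ± 0.03).

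Taken as a list, targets of ATF4, the transcription factor of amino acid shortage and eIF2 stress, lost in lactate the lead that sgHcar1 cells had in PBS. In PBS 29 of 35 were higher in sgHcar1 cells (median 1.16), where 38.6% of all genes were. In lactate 19 were higher, 11 lower and 5 not past the test (median 0.13), against 42.7% higher and 41.6% lower of all genes. The lactate split depended on the scale: with equal library sums 10 were higher and 19 lower, with a median of -0.28, and with quantile normalization the median was -0.12. The interaction was negative for 32 of the 35 and positive for 1, where 29.6% of all genes were called negative. The members with the largest lactate differences did not all show that course. Atf3, a repressor induced downstream of ATF4, had 60.7, 63.2 and 67.9 FPKM in sgControl against 0, 0.0659 and 0.105 FPKM in sgHcar1 cells (-5.94 ± 0.09). It was already lower in PBS (-1.76 ± 0.09). Gdf15, a stress hormone, had 38.3, 38.3 and 40.3 against 2.09, 2.68 and 2.81 FPKM (-3.51 ± 0.11), and Cth, which makes cysteine from cystathionine, had 14.9, 14.8 and 15.6 against 0.154, 0.127 and 0.298 FPKM (-3.75 ± 0.13). Gdf15 and Cth were lower in PBS too (-0.57 ± 0.11 and -1.15 ± 0.13). Ddit4, an inhibitor of mTORC1, was higher, at 22.6, 20.2 and 22.9 against 75.9, 69.3 and 82.1 FPKM (1.74 ± 0.07), and in PBS as well (2.24 ± 0.07).

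Most targets of NRF2, the factor that answers oxidative stress, were higher. Of 22 tested 16 were higher and 6 lower (median 0.69), against 42.7% higher and 41.6% lower of all genes, with summed levels of 2341 to 2465 and 6496 to 7102 FPKM. Hmox1, heme oxygenase 1, carried much of that sum, with 238, 251 and 229 FPKM in sgControl against 2499, 2241 and 2439.8 FPKM in sgHcar1 cells (3.32 ± 0.08, in PBS 1.39 ± 0.08). Gclm, of glutathione synthesis, had 57.9, 61.4 and 54.5 against 308, 285 and 284 FPKM (2.32 ± 0.06, in PBS 0.23 ± 0.06). Osgin1 had 5.64, 5.41 and 4.71 against 43.2, 37.1 and 40.5 FPKM (2.72 ± 0.08, in PBS 0.33 ± 0.08). Abcc4, an exporter of organic anions and cyclic nucleotides, had 4.2, 4.18 and 3.95 against 24.7, 24.9 and 23.1 FPKM (2.30 ± 0.06), and the glutathione transferase gene Gsta4 had 0.0596, 0.188 and 0.26 against 16.5, 12.5 and 17.7 FPKM (3.81 ± 0.15). For each of these 5 the difference was larger in lactate than in PBS by the interaction term (largest limma adjusted p = 3.90e-04).

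Most genes that handle lactate itself were higher on the deposited scale. Of 16 lactate and pyruvate genes tested 12 were higher and 3 lower, where 42.7% and 41.6% of all genes were, and Pdhb did not pass (median 0.38). With equal library sums 7 were higher and 7 lower. Ldha, the lactate dehydrogenase subunit that favours lactate production, had 197, 195 and 211 FPKM in sgControl against 561, 589 and 579 FPKM in sgHcar1 cells (1.52 ± 0.04). The monocarboxylate carrier genes Slc16a1 and Slc16a3 differed by 0.95 ± 0.03 and 0.13 ± 0.04. Emb, a chaperone of such carriers, had 3.22, 2.69 and 2.87 FPKM in sgControl and 0 in all 3 sgHcar1 libraries. Pcx, which makes oxaloacetate from pyruvate, and Pdk3, a kinase that shuts pyruvate dehydrogenase, differed by 1.21 ± 0.08 and 1.21 ± 0.05, and Pdk2 by -1.29 ± 0.08. Among 18 tested receptor and cyclic AMP genes 8 were higher and 9 lower (median -0.04). Adenylyl cyclases, which make the cyclic AMP that HCAR1 restrains, were among the lower ones: Adcy7 had 39, 38.5 and 40.9 against 6.18, 6.66 and 6.01 FPKM (-2.47 ± 0.05), Adcy3 had 11, 10.6 and 11.2 against 0.654, 0.739 and 0.871 FPKM (-2.77 ± 0.05) and Adcy9 differed by -1.58 ± 0.06, while Adcy6 did not pass. The phosphodiesterase gene Pde4b had 1.15, 1.31 and 1.33 FPKM in sgControl and 0 in all 3 sgHcar1 libraries, and Prkar2b, a regulatory subunit of protein kinase A, had 6.45, 5.61 and 6.57 against 35.4, 34.7 and 35.3 FPKM (2.33 ± 0.06). The cyclase differences were of like size in PBS (-2.34 ± 0.05 for Adcy7 and -2.75 ± 0.05 for Adcy3).

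Glycolytic and hypoxia-inducible genes were split. Of 11 glycolysis genes 6 were higher and 5 lower (median 0.46, but -0.20 with quantile normalization), against 42.7% higher and 41.6% lower of all genes. Gpi1, which makes fructose 6-phosphate, had 29, 27.2 and 29.6 against 121, 116 and 124 FPKM (2.04 ± 0.04). Aldoa and Tpi1, of later steps, differed by 1.26 ± 0.04 and 1.01 ± 0.04, while the phosphofructokinase gene Pfkp had 15.1, 15.7 and 16.6 against 4.35, 4.43 and 4.72 FPKM (-1.61 ± 0.05) and its activator gene Pfkfb3 differed by -0.77 ± 0.07. Of 20 hypoxia-inducible genes 12 were higher and 6 lower, and Hif1a and Mxi1 did not pass (median 0.51). Car9, a carbonic anhydrase that exports acid, had 1.61, 1.07 and 1.14 against 65.6, 66.4 and 63.3 FPKM (4.87 ± 0.08), and Apln, a peptide hormone, had 0.0725, 0.0381 and 0.158 against 8.94, 9 and 8.42 FPKM (3.17 ± 0.06). Ero1l, an oxidase of disulfide formation, and Ankrd37 differed by 1.83 ± 0.07 and 1.92 ± 0.13. Nrn1, a neurite-promoting protein, had 4.75, 5 and 5.47 FPKM in sgControl and 0 in all 3 sgHcar1 libraries.

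Cell division genes were lower in sgHcar1 cells in lactate. Of 31 mitosis genes 26 were lower, 1 was higher (Mad2l1, of the spindle checkpoint) and Aurka, Bub1, Bub1b and Cdk1 did not pass (median -0.52), against 41.6% lower and 42.7% higher of all genes. In PBS 14 were higher and 10 lower (median 0.06), where 38.6% and 39.2% of all genes were, and the interaction was negative for 27 of 31, where it was for 29.6% of all genes. Mki67, the Ki-67 antigen, had 46.7, 47.7 and 47 against 14.1, 14.7 and 14.6 FPKM (-1.64 ± 0.03). Top2a, which untangles chromosomes, had 79.3, 85.1 and 81.5 against 24.3, 25.5 and 24.1 FPKM (-1.70 ± 0.03), and Ccna2, cyclin A2, had 29.5, 29.1 and 30.4 against 6.49, 7.46 and 6.83 FPKM (-1.95 ± 0.04). Kif11 and Ccnb2 differed by -1.56 ± 0.03 and -1.48 ± 0.06. Of 29 DNA replication genes 19 were lower and 6 higher (median -0.32), with 23 lower in PBS. Mcm6, of the replicative helicase, had 54.4, 59.3 and 59.1 against 26.7, 25.8 and 26.2 FPKM (-1.10 ± 0.04), and Tk1 and Cdc6 differed by -1.32 ± 0.03 and -1.30 ± 0.05. Ccne1, cyclin E1, was higher (1.29 ± 0.07).

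Targets of p53 were mostly higher, while Trp53 itself was lower (-1.48 ± 0.04). Of 23 tested 19 were higher and 3 lower, and Bbc3 did not pass (median 1.19), against 42.7% higher and 41.6% lower of all genes. Mdm2, the ligase that degrades p53, had 17.5, 18.1 and 16.5 FPKM in sgControl against 123, 125 and 115 FPKM in sgHcar1 cells (2.74 ± 0.06). Eda2r had 1.06, 0.673 and 0.793 against 17, 18.4 and 16.5 FPKM (3.32 ± 0.08), Btg2, an antiproliferative factor, 2.02, 1.66 and 1.59 against 20.01, 19.6 and 19.5 FPKM (2.91 ± 0.06), and Trp53inp1 0.995, 0.964 and 0.904 against 8.39, 8.63 and 7.48 FPKM (2.23 ± 0.06). Pmaip1, the apoptosis gene NOXA, had 30.5, 32.4 and 29 FPKM in sgControl and 0 in every sgHcar1 library of both media.

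Cholesterol synthesis was lower throughout. All 22 tested genes of the pathway were called lower, 14 of them by at least 2-fold (15.3% of all genes were), with a median of -1.23 and a summed level of 696 to 729 against 282 to 300.5 FPKM. In PBS 17 were lower and 1 was higher (median -0.53), and the interaction was negative for 19. Hmgcs1, an early enzyme of the pathway, had 53.6, 56.1 and 57 against 15.7, 13.9 and 16.5 FPKM (-1.79 ± 0.06), Idi1 had 7.79, 8.81 and 9.24 against 1.41, 1 and 1.01 FPKM (-2.17 ± 0.11) and Fdps 3.01, 2.75 and 3.24 against 0.375, 0.337 and 0.467 FPKM (-1.52 ± 0.08). At the end of the pathway Dhcr7 had 15.7, 16.1 and 16.7 against 4.05, 3.18 and 4.36 FPKM (-1.83 ± 0.08). The counts did not change with equal library sums (22 lower). Of 19 fatty acid genes 11 were lower and 6 higher (median -0.27), and with equal library sums 16 and 2. Fasn, the fatty acid synthase, had 34.1, 32.2 and 34 against 12, 10.3 and 10.3 FPKM (-1.54 ± 0.06). Cpt2 and Acadm, of fatty acid oxidation, differed by -1.37 ± 0.07 and 0.90 ± 0.03, and the desaturase gene Scd1 by 0.56 ± 0.02.

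Genes of the ribosome and of respiration were higher on the deposited scale. Of 35 cytosolic ribosomal protein genes 30 were higher and 1 lower (median 0.91, and 0.50 with equal library sums, where 25 were higher and 7 lower). Of all genes 42.7% were higher and 41.6% lower on the deposited scale. Rps20 had 142, 137 and 147 against 452, 463 and 466 FPKM (1.69 ± 0.04), and Rpl22l1, a paralogue of Rpl22, had 12.9, 13.6 and 11 against 47.8, 44.5 and 39.3 FPKM (1.73 ± 0.10). Their many processed copies make these levels uncertain. Their summed level was 13781 to 14638 and 24785 to 26043 FPKM. Of 36 respiratory chain genes 31 were higher and 3 lower (median 0.50), and with equal library sums 17 and 11 (median 0.10). Ndufa4 had 28.4, 26.2 and 28.1 against 78.6, 82.1 and 76.6 FPKM (1.49 ± 0.05), and Cox7c, Cox7a2, Atp5c1 and Uqcrb differed by 1.48 ± 0.13, 1.20 ± 0.05, 1.10 ± 0.03 and 1.74 ± 0.21.

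Several EGF receptor ligand genes were higher, and early response genes went both ways. Ereg and Areg encode epiregulin and amphiregulin, ligands of the EGF receptor. Ereg had 0.705, 0.64 and 0.664 FPKM in sgControl against 59.9, 59.4 and 54.5 FPKM in sgHcar1 cells (5.14 ± 0.07), and Areg had 0.516, 0.198 and 0.82 against 21.4, 20.2 and 20.4 FPKM (3.86 ± 0.12, in PBS 1.04 ± 0.12). Hbegf and Nrg1, of the same ligand family, differed by 2.17 ± 0.09 and 1.01 ± 0.07, while the receptor gene Erbb3 had 2.28, 2.39 and 2.71 against 0.203, 0.106 and 0.176 FPKM (-1.57 ± 0.09). In all 4 of 6 tested were higher and 2 lower. Of 27 immediate early and MAPK feedback genes 15 were higher, 11 lower and Spry2 did not pass (median 0.49), against 42.7% higher and 41.6% lower of all genes. Fosb had 1.02, 0.784 and 1.1 against 28.7, 24 and 28.5 FPKM (3.83 ± 0.11) and Egr2 0.537, 0.831 and 0.696 against 15.2, 13.4 and 15.2 FPKM (3.21 ± 0.08). Klf2, a factor induced by flow in endothelium, was lower, at 58.4, 60.7 and 62.4 against 0.272, 0.423 and 0.368 FPKM (-5.51 ± 0.04). YAP-TEAD targets had no common direction, with 6 of 16 higher and 7 lower (median 0.02), and 3 and 12 (median -0.38) with equal library sums. F3, tissue factor, had 1.52, 1.51 and 1.19 against 55.2, 52.7 and 51 FPKM (4.49 ± 0.08), Ankrd1 had 227, 234 and 230.1 against 49.4, 53.1 and 51.8 FPKM (-2.14 ± 0.04), and Crim1 and Tead4 differed by 1.07 ± 0.05 and -1.06 ± 0.05.

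Smaller lists gave further single genes. Of 23 lysosome and autophagy genes 9 were higher and 14 lower (median -0.22), against 42.7% higher and 41.6% lower of all genes. Gla, a lysosomal galactosidase, and Gabarapl1, of autophagosomes, differed by 1.69 ± 0.08 and 1.26 ± 0.04, and Ctsa, Wipi1 and Lamp2 by -1.26 ± 0.04, -1.44 ± 0.06 and -1.09 ± 0.03. Ly6a, the stem cell antigen Sca-1, had 229.6, 246 and 253 against 4.64, 3.01 and 3.32 FPKM (-5.72 ± 0.13), whereas Ly6e had 52.9, 56.5 and 55.6 against 165, 169 and 159.9 FPKM (1.56 ± 0.03) and Prnp differed by 0.88 ± 0.03. These 3 were the tested Ly6 and GPI-linked genes. Of 9 S100 genes 6 were lower and 3 higher (median -0.30). S100a6 had 556, 520.2 and 572 against 302, 296 and 328 FPKM (-0.83 ± 0.06), S100a16 had 1.38, 0.78 and 1.42 against 9.22, 7.99 and 9.62 FPKM (2.19 ± 0.13), S100a4 and S100a3 differed by -0.95 ± 0.14 and -0.67 ± 0.06, and S100a8, a calprotectin subunit, was listed at 0 in sgControl and at 1.34, 1.02 and 1.74 FPKM in sgHcar1 cells. Of 5 metallothionein and zinc genes, Mt2 was lower, at 663, 707 and 717 against 463, 459 and 436 FPKM (-0.62 ± 0.05), Mtf1 and Slc39a10 were higher (0.66 ± 0.05 and 0.66 ± 0.09), and Mt1 and Slc30a1 did not pass (median 0.16, but -0.21 with equal library sums). Of 8 X-inactivation and Y-linked symbols 2 had an entry and none passed the filter.

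Some guide differences existed in lactate but were not called in PBS. Of 1901 genes called in lactate alone, 1432 also had a called interaction. Cyr61, a matricellular protein induced by YAP and by serum, is one of the 8 largest with a higher level. It had 70.2, 67.8 and 63.7 FPKM in sgControl against 67.7, 70.7 and 70.9 FPKM in sgHcar1 cells in PBS, ranges that overlap, and 58, 67.3 and 66.9 against 672, 662 and 565 FPKM in lactate (interaction 3.23 ± 0.10, limma adjusted p = 3.07e-09). Fos, a subunit of AP-1, had 0.218, 0.179 and 0.371 against 10.3, 8.85 and 10.4 FPKM in lactate and at most 0.277 FPKM in any PBS library (interaction 3.03 ± 0.13). Elmo1, which activates Rac in engulfment and migration, had 0.0564, 0.095 and 0.117 against 5.12, 5.49 and 5.76 FPKM (2.45 ± 0.08), and Snx32, a sorting nexin, had 0.207, 0.509 and 0.491 against 5.99, 5.51 and 7.05 FPKM (2.28 ± 0.14). The remaining 4 of these 8 are small RNA loci, Mir7048, Mir7059, Mir7663 and Snora23, with interactions of 3.69 ± 0.63, 2.77 ± 0.74, 2.46 ± 0.66 and 2.91 ± 0.64. Such short loci lie in host transcripts, and in libraries of this kind their reads cannot be told from those of the host. For Mir7663, with 3.74, 0.984 and 2.04 against 14.1, 6.98 and 6.19 FPKM, the lactate difference of 1.64 ± 0.47 did not pass with a pseudocount of 0.1 (limma adjusted p = 0.0862) or with equal library sums (limma adjusted p = 0.0599).

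In the other direction, Stc2, a glycoprotein hormone of the stress response, had 1.71, 1.82 and 1.76 FPKM in sgControl against 1.72, 1.81 and 1.75 FPKM in sgHcar1 cells in PBS, ranges that overlap, and 15.2, 14.7 and 16.8 against 2.09, 1.84 and 1.55 FPKM in lactate (interaction -2.55 ± 0.10). Cdkn1b, the cyclin-dependent kinase inhibitor p27, had 20.3, 20.7 and 20.6 against 6.83, 5.47 and 7.26 FPKM in lactate, and in PBS 17.9, 18.3 and 17.9 against 17, 16.7 and 17.2 FPKM (-1.44 ± 0.10). Ankle1, a nuclease of haematopoietic cells, had 8.54, 7.91 and 8.54 against 2.06, 2.18 and 1.81 FPKM (-1.76 ± 0.08), and Acat3, an acetyl-CoA acetyltransferase, had 8.59, 12.3 and 10.3 against 1.6, 2.14 and 2.27 FPKM (-1.66 ± 0.16). Orai3, a calcium channel subunit, had 7.67, 8.36 and 8.23 against 2.31, 2.69 and 2.86 FPKM (-1.34 ± 0.10). The other 3 were the non-coding loci Runx2os2, Mir7072 and Snora64, with interactions of -2.10 ± 0.19, -1.87 ± 0.48 and -1.32 ± 0.30, and Runx2os2 is antisense to Runx2, whose reads are not set apart without strand.

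A called difference had opposite signs in PBS and lactate in 966 genes. The interaction was called for all 966, which follows from the way they were picked, since differences of opposite sign add up in that term. The 8 that differed most in both media, ranked by the smaller of their 2 differences, were Hspa1b and Hsph1, given above, and 6 more. Arc, an activity-regulated gene of synapses, had 3.2, 3.26 and 3.08 FPKM in sgControl against 0.947, 0.809 and 0.79 FPKM in sgHcar1 cells in PBS, and 0.933, 1.75 and 1.55 against 20.9, 13.4 and 20.6 FPKM in lactate (-1.18 ± 0.16 in PBS, 2.99 ± 0.16 in lactate). Jun, the partner of Fos in AP-1, had 84.4, 79.6 and 79.5 against 42.4, 40.9 and 41.7 FPKM in PBS and 54.3, 62.7 and 58.2 against 163, 145 and 166 FPKM in lactate (-0.95 ± 0.06 and 1.42 ± 0.06). Mcts2, an imprinted copy of a translation factor gene, and the locus Mir6935 went the same way, from -1.21 ± 0.06 to 1.33 ± 0.06 and from -1.21 ± 0.30 to 1.97 ± 0.30. Chac1, an ATF4 target that degrades glutathione, went the opposite way. It had 11, 10.7 and 11.3 against 37, 37.4 and 40.3 FPKM in PBS and 226, 209.7 and 237 against 113, 106 and 126 FPKM in lactate (1.71 ± 0.06 and -0.95 ± 0.06). Trim46, which organises microtubules in axons, had 1.59, 1.44 and 1.52 against 3.48, 3.56 and 4.26 FPKM in PBS and 25, 24.9 and 26.6 against 11.3, 12.3 and 12.2 FPKM in lactate (0.92 ± 0.06 and -1.03 ± 0.06). In every one of these genes the libraries of the 2 guides did not overlap in either medium.

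The guide difference was not even along the genome. Of the 12788 genes 10522 could be placed on a chromosome by symbol in the RefSeq annotation of GRCm38.p6. Chromosome 8 had the lowest median difference, -0.62 over 594 genes, of which 74.1% were lower and 15.7% higher in sgHcar1 cells. Chromosomes 14 and 11 followed, at -0.44 over 354 genes and -0.41 over 902 genes. At the other end were chromosome 5 at 0.28 over 687 genes, with 58.2% higher and 28.8% lower, chromosome 6 at 0.26 over 486 genes and chromosome 13 at 0.25 over 368 genes. The 3 sgHcar1 libraries gave nearly the same medians, for chromosome 8 -0.64 to -0.60. In PBS, where the libraries are different ones, the medians of chromosomes 8, 14 and 11 were -0.59, -0.43 and -0.41 and that of chromosome 5 was 0.23. The medians of the interaction lay between -0.05 and 0.07 for all 20 chromosomes. These are descriptions of neighbouring genes, which are not independent, and they carry no test. Of the genes named above, none was selected by chromosome.

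**Figure D5:**
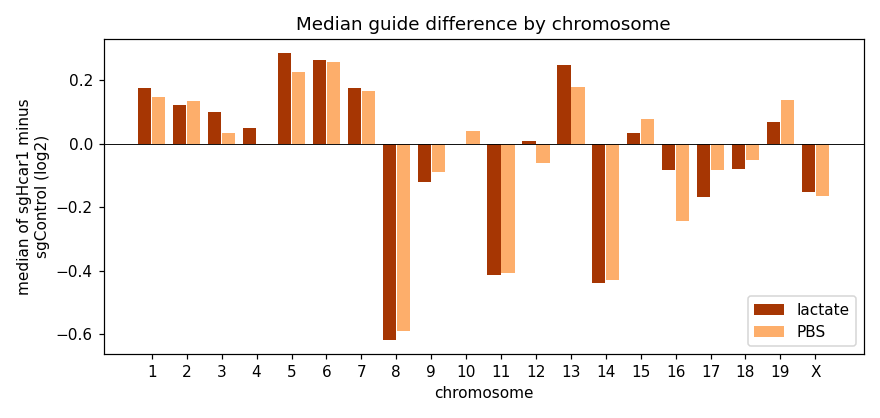
Bars give the median guide difference per chromosome (sgHcar1 minus sgControl, log2(FPKM + 1)) in lactate and in PBS, over 10522 genes placed by symbol. Chromosomes 8, 14 and 11 have the lowest medians (-0.62, -0.44 and -0.41 in lactate) and chromosome 5 the highest (0.28), and the PBS bars have the same sign on these chromosomes.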

How the data were processed

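RNA was measured in 12 libraries, and the guides were compared over the 6 in lactate, 3 per group. The authors deposited 1 table of FPKM, fragments normalised for gene length and library, as its headers say. Per the submitters' processing notes HISAT2 2.0.5, featureCounts 1.5.0-p3 and the build GRCm38 were used, and per the labels' protocols total RNA went into TruSeq libraries. How fragments were scaled is not given in the sources used here. The deposited FPKM have median-ratio size factors within 3.27e-10 of 1 over 14073 entries above 0 in all libraries, so they had been scaled that way. The table holds no counts or gene lengths, so depth in reads is unknown and no count test was run. Columns were matched to groups by their letters, the sgHcar1 letter by elimination.

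Genes with 1 FPKM in 3 of the 6 libraries were tested as log2(FPKM + 1), which understates changes of low genes, with limma 3.58.1 in R 4.3.3. A model with 1 mean per group over all 12 libraries gave moderated, trend-based tests, two-sided, with Benjamini-Hochberg adjustment over 12788 genes at 0.05 within each contrast (guide in lactate, guide in PBS, and their difference). A difference is the fitted value ± standard error, and no guide difference is given where all 3 libraries of a compared group are at 0. Interaction values of some such genes are given, and they depend on the pseudocount. Hcar1 and Hcar2 were under the filter and had an exact permutation test. Simulated data of 12788 genes had only 50 genes set to change at each fold. Of these, 84% at 1.25-fold, 98% at 1.5-fold and 100% at 2-fold and 4-fold were recovered. Unchanged genes made up 6 of the 197 calls. In the deposited data 84.4% of genes were called, so neither recovery nor false calls carry over to them. Recovery of genes at low levels was not tested separately.

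The comparison, the 36 gene lists and 5 marker lists (937 symbols, 888 with an entry) and the rules for named genes were chosen with earlier results of these data known. The rule named Hcar1, Hcar2, Ccl2 and Ccl7, the 12 largest called differences each way with a mean of at least 5 FPKM in the higher group and no overlap, the 8 most abundant genes under 0.1 FPKM in every library of the other group, the 8 largest each way that were called in lactate and in the interaction but not in PBS, the 8 largest of opposite sign by the smaller of the differences in both media, and up to 5 called members of each list. Unnamed loci and predicted genes were passed over, and some genes that the rule named are not reported here. Other members, among them Isg15, Ifit1, Gbp3, Hspd1, Hspa2, Cryab, Hsf2, Col1a2, Irf7, Slc16a1, Slc16a3, Trp53, Mad2l1, Trib3, Asns, Vldlr and marker genes, were chosen after their values were seen. Lists are described by counts and medians, with no test.

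Promoters and chromosomes came from RefSeq tables of GRCm38.p6, matched by symbol. Of 827 windows of list genes checked for direction, 674 ended in a stretch found in a transcript of that gene. Alternatives were a pseudocount of 0.1, no filter, a mean of at least 5 FPKM, quantile normalization, equal library sums, no trend, array weights, a replicate block, only the 6 lactate libraries, and leaving out each library with the tested genes held fixed, a choice made after a first run. Median-ratio scaling changes nothing here, since the table already has it. Python 3.11.15, pandas 2.3.3, numpy 2.4.6 and matplotlib 3.10.9 made tables and figures.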

Additional observations from a re-analysis of the deposited data

Results flagged for a closer look

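Among the genes named for the size of their difference, for being near 0 in 1 guide or for a guide difference that changed with the medium, the guide difference in lactate differed from that in PBS in 48 by limma's interaction term at an adjusted p of 0.05, a test that 61.4% of all genes passed. Genes named for a change with the medium were picked by that term or by called differences of opposite sign. They pass by construction, so the 48 cannot be compared with the share of all genes. Genes named only as members of a list are left out here, and some of those have larger values than most given here, such as Dnajb1 with 5.12 and Atf3 with -4.18. Values are the lactate difference minus the PBS difference on the log2(FPKM + 1) scale.

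A positive value, with sgHcar1 further above sgControl in lactate than in PBS, was found for these heat shock and early response genes: Hspa1b 10.08, Hsph1 6.10, Arc 4.17, Cyr61 3.23, Fos 3.03, Jun 2.37 and Egr1 1.497. The small RNA loci Mir7048, Mir6935, Snora23, Mir7059 and Mir7663 had 3.69, 3.19, 2.91, 2.77 and 2.46. Mcts2 had 2.54, Elmo1 2.45, Snx32 2.28, Ppef1 2.12, Csn3 1.75, Oasl1 1.21 and Cyp2c55 0.65. Among genes listed at 0 in a whole group, where the value depends on the pseudocount, Nefm had 2.09, Krt18 1.31, Ifi202b 0.79, Krt14 0.32 and Pmp22 0.28. Fstl1 and Col6a3, lower in sgHcar1 cells in both media, had 0.32 and 0.29.

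A negative value was found for Chac1 at -2.66, Stc2 at -2.55 and Trim46 at -1.95, which were higher in sgControl cells in lactate than in PBS. The non-coding loci Runx2os2, Mir7072 and Snora64 had -2.10, -1.87 and -1.32. Ankle1 had -1.76, Acat3 -1.66, Cdkn1b -1.44, Orai3 -1.34 and Esm1 -1.19, and Slc7a2, at 0 in sgHcar1 cells, had -1.44. Among the secreted and matrix genes, lower in sgHcar1 cells in both media, Timp3 had -0.79, Ccl2 -0.63, Col6a1 -0.60, Fbn1 -0.52, Ccl7 -0.51, Cspg4 -0.39, Mmp2 -0.38, Bgn -0.31 and Tgfbi -0.28. Cldn6, higher in both media, had -0.29.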

How the results depend on the processing

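Of the 203 named results, 4433 of 4435 recomputed values kept direction and call, and the 2 exceptions are those of Mir7663 given above. These totals say little about robustness. Most of the genes were picked for large called differences, and genes that a stricter filter left out gave no value. Median-ratio scaling and leaving out a PBS library cannot move a lactate difference, yet both are counted. Of 770 recomputed list medians 677 moved by less than the spread used, 85 moved and 8 turned. With a mean of at least 5 FPKM the epithelial junction and intestinal medians became 0.44 and 1.55, with quantile normalization the ATF4 and glycolysis medians -0.12 and -0.20, and with equal library sums the ATF4, metallothionein, MHC class I and YAP-TEAD medians -0.28, -0.21, -0.15 and -0.38, where the median of all genes was -0.37. Of 1540 recomputed member counts 1500 stayed within 1.5 times and 40 did not. Calls in lactate numbered 10788, or 3677 with a 2-fold limit, 13747 with no filter, 10717 with quantile normalization and 10640 with only the 6 lactate libraries. With a mean of at least 5 FPKM, where fewer genes are tested, 2-fold calls numbered 2018 in lactate, 1384 in PBS and 580 for the interaction, and the interaction had 1585 with a pseudocount of 0.1 and 1610 with equal library sums. Leaving out each library gave 10534 to 10775 calls in lactate, 3654 to 3739 at 2-fold, 9564 to 9979 in PBS and 2503 to 2534 at 2-fold, 7461 to 7665 for the interaction and 969 to 1014 at 2-fold, and 248 to 278 and 435 to 474 genes under 0.1 FPKM in sgControl and sgHcar1.

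With the replicate number as a block, 10758 genes passed in lactate, 9907 in PBS and 7774 for the interaction. Deviations of same-numbered libraries of different groups correlated at -0.066 to 0.099 over 18 pairs. The labels state no pairing, and such values cannot show whether these libraries shared a culture day or batch. Median-ratio scaling gave the deposited values again. Depth in reads is unknown, so no limit of detection can be set for genes listed at 0.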
